A study of Homo sapiens with 18 samples.

Results

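G2/M and mitosis genes are the genes whose RNA accumulates as a cell leaves S phase and passes through division. A list of 40 such genes was taken, and a gene counted as measured when the platform annotation gave its symbol to a feature, the array's unit of measurement for one transcript cluster. This held for 33 of the 40 genes, each with 1 feature, among 53617 features of which 16098 carried a symbol. The other 7 (UBE2C, CENPE, CENPF, TPX2, DLGAP5, ASPM and ANLN) had no named feature and are not analysed here.

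The genes were read in 18 Affymetrix Human Gene 2.0 ST arrays of cultured breast cancer cells, 3 arrays in each of 6 groups. SKBR3, a HER2-positive line, was transfected with an antisense oligonucleotide (ASO) that was either a control or directed at LINC01269, a long non-coding RNA. The triple-negative lines MDA-MB-231 and MDA-MB-468 were transfected with a control ASO or with one directed at a second long non-coding RNA, AL078604.2. All cells, controls included, carried a GapmeR, an ASO that recruits RNase H to its target, at 15 nM for 48 h with the transfection reagent TransIT-BrCa. The study asked what loss of each long non-coding RNA does to the transcriptome, and the genes described here show whether transcripts of dividing cells were among those that differed. The labels name no second ASO for either target, and neither target has a named feature, so its knockdown was not analysed here.

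Entry into mitosis is driven by cyclin-dependent kinase 1 bound to B-type cyclins, after CDC25 phosphatases remove its inhibitory phosphates. The spindle assembly checkpoint, built on unattached kinetochores, holds back the anaphase-promoting complex until each chromosome is attached, and CDC20 then lets that complex destroy cyclin B and securin. Most of these genes share a transcriptional programme in which the DREAM complex represses them in resting cells and MuvB with B-MYB and FOXM1 activates them in G2, and their RNA is widely used to gauge how many cells of a tumour are cycling. In RNA from a whole culture, fewer cells in G2 and mitosis and less RNA per cell cannot be told apart.

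That programme is known to act through short promoter elements, so promoters of 7 members on which the values below turn are shown first. Each is the 150 bases before the annotated transcript start, 5′ to 3′ on the gene's strand, from RefSeq on GRCh38.p14. Capitals mark the cell cycle genes homology region, searched as TTTGAA or its reverse complement TTCAAA, and the CCAAT box, searched as CCAAT or ATTGG, with overlapping matches kept. The positions are chr16:23678739-23678888 (plus strand) for PLK1, chr1:43358831-43358980 (plus) for CDC20, chr15:59104996-59105145 (plus) for CCNB2, chr15:90994536-90994685 (minus) for PRC1, chr1:211675622-211675771 (minus) for NEK2, chr5:163460482-163460631 (plus) for HMMR and chr2:26785906-26786055 (plus) for CENPA.
PLK1: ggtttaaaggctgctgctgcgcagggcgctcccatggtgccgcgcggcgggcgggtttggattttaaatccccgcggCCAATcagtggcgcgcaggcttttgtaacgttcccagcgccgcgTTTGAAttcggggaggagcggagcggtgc
CDC20: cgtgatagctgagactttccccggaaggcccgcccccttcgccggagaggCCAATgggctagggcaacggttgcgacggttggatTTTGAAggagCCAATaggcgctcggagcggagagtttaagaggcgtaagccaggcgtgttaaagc
CCNB2: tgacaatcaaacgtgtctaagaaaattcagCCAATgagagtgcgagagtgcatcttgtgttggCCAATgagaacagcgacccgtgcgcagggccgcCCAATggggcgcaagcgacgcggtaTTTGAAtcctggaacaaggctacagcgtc
PRC1: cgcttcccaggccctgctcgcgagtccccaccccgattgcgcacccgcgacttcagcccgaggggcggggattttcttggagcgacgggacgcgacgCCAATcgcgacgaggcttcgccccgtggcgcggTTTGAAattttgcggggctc
NEK2: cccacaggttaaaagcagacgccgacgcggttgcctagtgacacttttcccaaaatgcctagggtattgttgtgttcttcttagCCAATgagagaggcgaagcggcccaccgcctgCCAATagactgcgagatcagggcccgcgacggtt
HMMR: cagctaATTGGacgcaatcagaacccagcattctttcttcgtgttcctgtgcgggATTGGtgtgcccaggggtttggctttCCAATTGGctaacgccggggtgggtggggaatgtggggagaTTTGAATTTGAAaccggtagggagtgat
CENPA: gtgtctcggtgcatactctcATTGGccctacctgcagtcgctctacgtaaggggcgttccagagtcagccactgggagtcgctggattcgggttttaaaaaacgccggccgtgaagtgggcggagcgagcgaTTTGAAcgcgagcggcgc

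CCNB2, the cyclin B2 gene, has 3 CCAAT boxes beginning 120, 87 and 54 bases before the start, and a TTTGAA beginning 29 bases before it. PLK1 has its TTTGAA in the same place, 29 bases before the start, with a single CCAAT box 73 bases before it. HMMR carries 2 adjoining copies of TTTGAA, 28 and 22 bases before the start, and NEK2 has CCAAT boxes at 66 and 34 bases but no match to TTTGAA in this window. The RefSeq table held a promoter for 33 of the 40 listed genes, a set that differs from the 33 with a feature. TTTGAA lay within 150 bases of the start in 19 of these 33 (57.6%), against 9.06% of 27305 genes with a promoter. A CCAAT box lay there in 27 (81.8%), against 27.8% of all genes, and both elements in 17 (51.5%), against 2.44%. A match is a description of the letters and not evidence of binding.

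The cell line labels were set against marker genes in the control arrays. EPCAM, an epithelial adhesion molecule, stood at the 98.9, 99.2 and 99.3 percentile of all features in arrays labelled SKBR3, MDA-MB-231 and MDA-MB-468. High EPCAM goes against the MDA-MB-231 label, because cultures of that line are usually mesenchymal in character. The epithelial genes CLDN7 and ESRP1 also stood high in the arrays labelled MDA-MB-231, at 96.9 and 98.1. VIM (vimentin) stood at 76.1, 76.6 and 82.1 in the order given above, and AXL, a receptor kinase of mesenchymal-like breast cancer cells, at 80.7, 83.2 and 60.1. Of the other mesenchymal markers, ZEB1 stood at 43.7, 45.8 and 33.3 and FN1 at 88.9, 87.0 and 88.4. The epithelial keratins KRT8 (77.6, 74.0 and 75.5) and KRT19 (98.3, 97.98 and 98.05) were lowest in the arrays labelled MDA-MB-231. Of the mesenchymal markers, AXL and ZEB1 were thus highest under the MDA-MB-231 label, while VIM was not and FN1 was lowest. The gap in KRT19 was small. EPCAM, CLDN7, ESRP1 and KRT19 all stood near the top of the features there, which goes against a mesenchymal line. RB1, known to be lost in MDA-MB-468, stood at 47.7, 60.3 and 24.9. The basal markers pointed to different lines. The basal keratin KRT5 was highest in MDA-MB-468, at 85.8 against 69.6 and 73.4. In the same order, KRT14 stood at 71.9, 89.2 and 79.3, highest in MDA-MB-231, and EGFR at 99.0, 98.2 and 98.7, highest in SKBR3. ERBB2, CDH2 and SPARC had no named feature. GRB7 and STARD3, neighbours of ERBB2 that are usually amplified with it, stood at 79.1, 81.3 and 78.8 and at 83.6, 84.9 and 83.2. Neither was highest in the arrays labelled SKBR3, which goes against a HER2-amplified line. The luminal markers AGR2 (68.8, 51.7 and 54.1) and KRT18 (98.7, 98.5 and 97.0) were highest in the arrays labelled SKBR3. The 6 named markers of leukocytes, fibroblasts and endothelium (CD14, LYZ, DCN, LUM, PECAM1 and VWF, of 13 listed) lay between 4.47 and 51.9. The line names below are therefore those of the labels. Array medians ran from 4.56 to 5.43 and differed mainly by line, so treated arrays were compared with controls of their own line only. Correlations between replicate arrays were 0.985 to 0.992 and no pair of arrays was identical. Nothing in the labels says that replicates were separate cultures, so p-values measure only the spread between these arrays, and their number limits the precision.

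None of the 33 members passed an adjusted p of 0.05 by limma after any ASO. Their median difference, treated minus control on the log2 scale, was 0.02 in SKBR3, -0.00 in MDA-MB-231 and 0.03 in MDA-MB-468, beside 0.01, 0.01 and -0.00 over the 29855 features tested. All 33 members were among the features tested. Of all features tested, the share that passed was 0% in SKBR3, 0.171% in MDA-MB-231 and 0.0067% in MDA-MB-468. At an unadjusted p under 0.05 there were 2, 1 and 5 members (6.06%, 3.03% and 15.2%), beside 9.16%, 9.35% and 10.5% of all features. Among tested features with a symbol the shares were 8.7%, 11.5% and 12.2%. The members' differences ran from -0.15 to 0.33 in SKBR3, from -0.10 to 0.16 in MDA-MB-231 and from -0.21 to 0.27 in MDA-MB-468. The median half-width of a member's 95% interval was 0.15. Intervals lay wholly within 0.5 of 0 (a 1.41-fold change) for 32 members in SKBR3, all but MAD2L1, and for all 33 in MDA-MB-231 and in MDA-MB-468. By role, the 7 mitotic kinases had medians of 0.05, 0.04 and 0.11 in the 3 lines and the 8 genes of mitotic entry 0.02, 0.05 and 0.03. The 8 spindle genes stood at -0.04, -0.01 and 0.02, and the 4 checkpoint and exit genes at 0.09, 0.02 and 0.00. Smaller differences than these intervals span were not detectable with 3 arrays a group. Larger ones could also miss the adjusted threshold: HMMR in MDA-MB-468, at 0.27 with an interval of 0.10 to 0.44, had a limma adjusted p of 0.275.

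**Figure D1:**
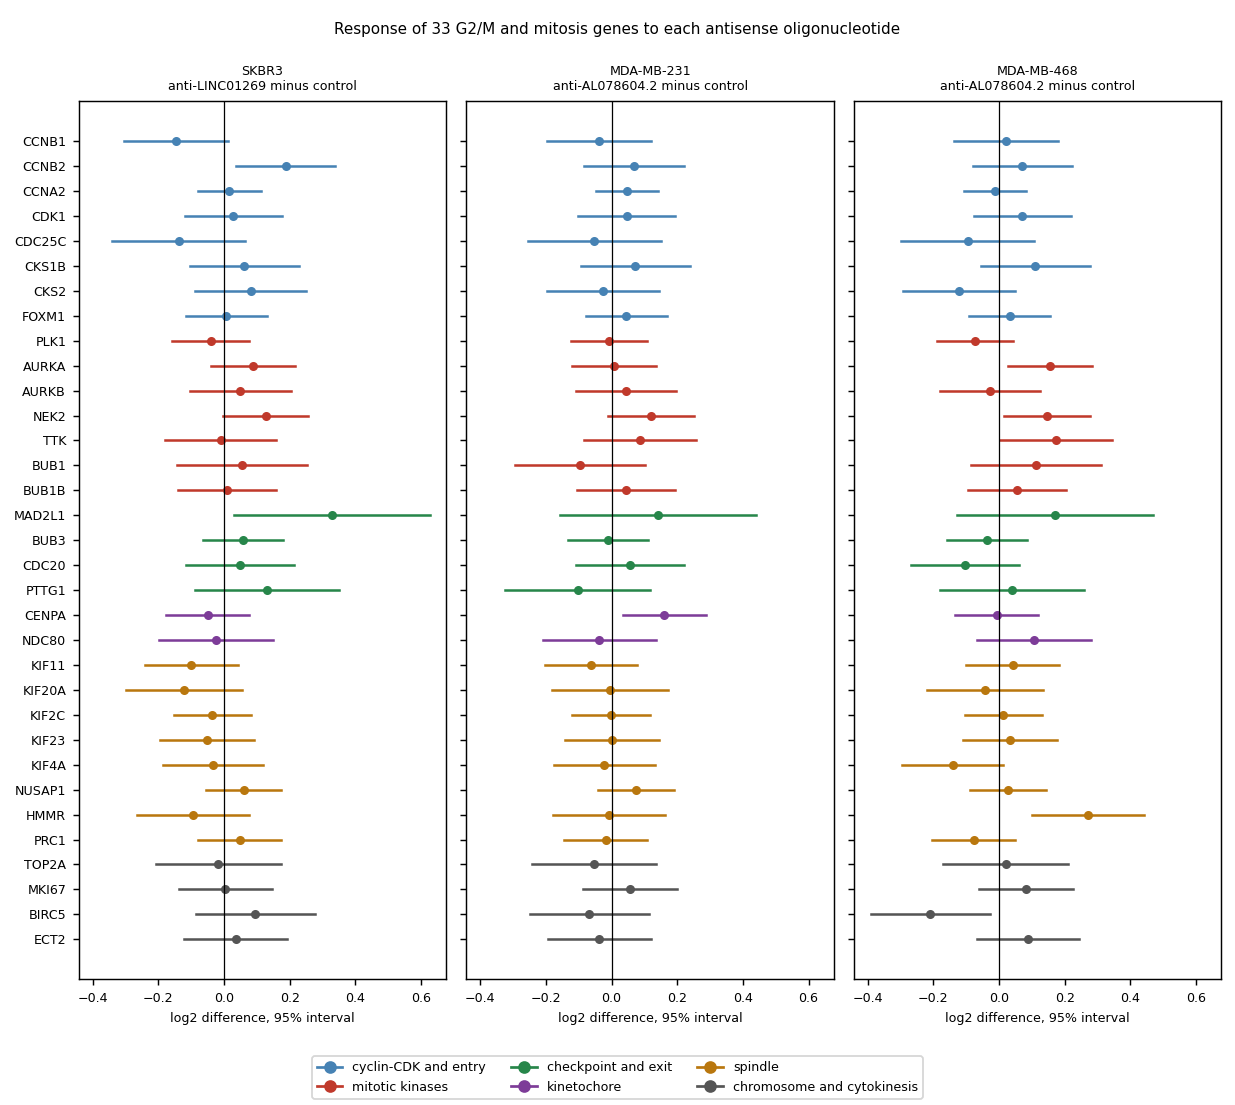
Each point is the log2 difference between treated and control arrays (3 against 3) for 1 of 33 members, the bar is its 95% interval from limma, and colours mark the members' roles, with 1 panel for each line. Most intervals cross 0, and that of MAD2L1 in SKBR3 reaches furthest, to 0.63.

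In SKBR3 cells given the anti-LINC01269 ASO, the members with the smallest p were CCNB2 and MAD2L1, both above control on average, while CCNB1, KIF11, KIF20A and CDC25C had the smallest p among those below it. CCNB2 encodes a B-type cyclin that partners CDK1, and read 8.67, 8.67 and 8.53 in the control arrays and 8.79, 8.71 and 8.92 in the treated arrays. Its 3 treated arrays all lay above its 3 controls, by 0.19 ± 0.07 on average (SE, limma adjusted p = 0.467). MAD2L1 encodes the checkpoint protein MAD2, which binds and holds CDC20, and read 8.23, 7.92 and 7.999 in controls and 8.60, 7.93 and 8.61 after the ASO. Replicates 1 and 3 of the treated group stood above every control and replicate 2 stood among them, so that the difference of 0.33 ± 0.14 did not pass (adjusted p = 0.504). Without that replicate the MAD2L1 difference became 0.55 ± 0.10 and passed (adjusted p = 0.0169), and 231 features (0.774%) passed with it.

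CCNB1, the cyclin B1 gene and the closest relative of CCNB2 here, read 9.42, 9.33 and 9.25 in SKBR3 controls and 9.17, 9.03 and 9.36 after the ASO. Its groups overlapped, with a difference of -0.15 ± 0.07 (adjusted p = 0.581). Its partner CDK1 read 9.67, 9.46 and 9.51 against 9.61, 9.46 and 9.66, a difference of 0.03. CDC25C, the phosphatase that activates CDK1, differed by -0.14 (adjusted p = 0.704), and its 95% interval reached -0.34, the lowest bound of any member in this line. Among spindle motors, KIF11, which slides microtubules apart to make the spindle bipolar, differed by -0.10 (adjusted p = 0.69) and KIF20A, a cytokinesis motor, by -0.12 (adjusted p = 0.702).

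NEK2, a centrosome kinase that frees duplicated centrosomes from each other, read 7.47, 7.53 and 7.50 in SKBR3 controls and 7.66, 7.64 and 7.58 after the ASO. Its treated arrays did not overlap the controls, and the difference was 0.13 ± 0.06 (adjusted p = 0.564). AURKA, the centrosomal Aurora kinase, read 8.20, 8.19 and 8.18 in controls and 8.26, 8.21 and 8.37 after the ASO (0.09, adjusted p = 0.698). With CCNB2 and BIRC5, these made 4 members (12.1%) whose groups did not overlap, beside 11.5% of all features tested and 12.4% of those with a symbol. All 4 had the treated arrays above the controls, beside 7.28% of features. PLK1, TOP2A, MKI67 and FOXM1 differed by -0.04, -0.02, 0.00 and 0.01.

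In MDA-MB-231 cells given the anti-AL078604.2 ASO, the member with the smallest p was CENPA, the histone H3 variant that marks where the kinetochore forms. It read 9.34, 9.36 and 9.33 in control arrays and 9.47, 9.60 and 9.46 after the ASO, so the groups did not overlap. The difference of 0.16 ± 0.06 did not pass (adjusted p = 0.347). NEK2 read 8.27, 8.33 and 8.31 against 8.38, 8.46 and 8.43, again without overlap (0.12 ± 0.06, adjusted p = 0.592). Members whose groups did not overlap numbered 6 (18.2%), beside 17.2% of all features and 20.2% of those with a symbol. CENPA, NEK2, CCNA2, CKS1B and MKI67 had all treated arrays above the controls, and KIF11 (-0.06, adjusted p = 0.87) had all of them below, beside 9.28% of features above and 7.87% below.

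The remaining MDA-MB-231 values were close to control. MAD2L1 read 8.83, 8.81 and 8.77 in controls and 8.78, 8.93 and 9.12 after the ASO (0.14 ± 0.14, adjusted p = 0.854), with 1 treated array among the controls. BUB1, a checkpoint kinase at the kinetochore, differed by -0.10 (adjusted p = 0.847), and PTTG1, the securin that restrains separase, by -0.10 (adjusted p = 0.855). NUSAP1, which bundles spindle microtubules, differed by 0.07 (adjusted p = 0.76), and BIRC5 by -0.07 (adjusted p = 0.898). CCNA2, cyclin A2, differed by 0.05 (adjusted p = 0.834). CKS1B, a small CDK-binding protein, differed by 0.07 (adjusted p = 0.875); CKS2 is a close paralog, probe sequences were not used here, and cross-hybridization between them was not tested.

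MKI67, which coats mitotic chromosomes and is the usual proliferation marker, read 11.46, 11.45 and 11.42 in MDA-MB-231 controls and 11.51, 11.47 and 11.50 after the ASO, a difference of 0.06 (adjusted p = 0.887). The treated arrays all lay above the controls by a small margin. PLK1, the Polo-like kinase that acts from mitotic entry to cytokinesis, read 11.40, 11.48 and 11.47 against 11.57, 11.41 and 11.34 (-0.01). CCNB1, CDK1, TOP2A (topoisomerase II alpha, which untangles sister chromatids) and FOXM1 differed by -0.04, 0.05, -0.05 and 0.05, and the groups of each overlapped.

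**Figure D2:**
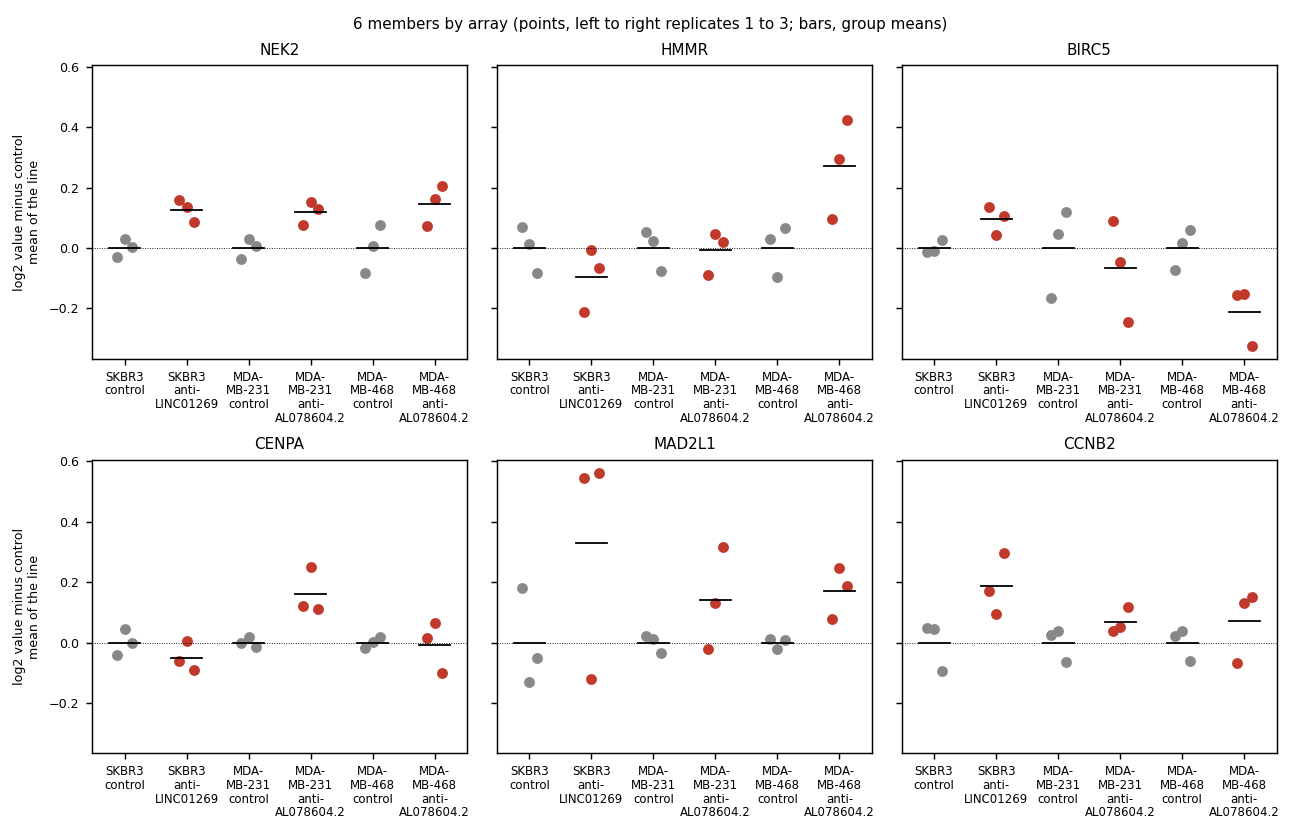
Points are single arrays, replicates 1 to 3 from left to right in each of the 6 groups, given as log2 value minus the control mean of the line, with group means as bars, for NEK2, HMMR, BIRC5, CENPA, MAD2L1 and CCNB2. NEK2 treated arrays lie above the control mean in all 3 lines, HMMR stands apart in MDA-MB-468, and 1 SKBR3 treated array of MAD2L1 lies below the control mean.

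In MDA-MB-468 cells given the anti-AL078604.2 ASO, HMMR had the smallest p of the members with positive differences and BIRC5 of those with negative ones. HMMR, the hyaluronan receptor RHAMM and a spindle-pole protein, read 10.01, 9.88 and 10.04 in controls and 10.07, 10.27 and 10.40 after the ASO. All treated arrays lay above the controls, replicate 1 by little, and the difference was 0.27 ± 0.08 (adjusted p = 0.275). BIRC5, or survivin, the chromosomal passenger subunit that brings AURKB to the centromere, read 9.25, 9.34 and 9.39 in controls and 9.17, 9.17 and 9.00 after the ASO. All its treated arrays lay below the controls (-0.21 ± 0.09, adjusted p = 0.403).

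AURKA read 8.75, 8.82 and 8.68 in MDA-MB-468 controls and 8.95, 8.88 and 8.89 after the ASO, without overlap (0.15 ± 0.06, adjusted p = 0.38). NEK2 read 8.10, 8.18 and 8.25 against 8.25, 8.34 and 8.38, where 1 treated array fell just inside the control range (0.15 ± 0.06, adjusted p = 0.417). TTK, the checkpoint kinase MPS1, read 10.57, 10.42 and 10.40 against 10.43, 10.66 and 10.82 (0.17 ± 0.08, adjusted p = 0.473), with replicate 1 among the controls. In the other direction KIF4A, a chromokinesin, read 9.78, 9.87 and 9.75 against 9.58, 9.71 and 9.69 (-0.14 ± 0.07, adjusted p = 0.521). These members belong to different steps of division, from the centrosome to the midzone.

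Groups did not overlap for 6 members (18.2%) in MDA-MB-468, beside 16.9% of all features and 19.4% of those with a symbol. HMMR, AURKA and MAD2L1 had all treated arrays above the controls, and BIRC5, KIF4A and PRC1 all below, beside 8.41% of features above and 8.5% below. MAD2L1 differed by 0.17 ± 0.14 (adjusted p = 0.735), and NDC80, the outer kinetochore protein that grips microtubules, by 0.11 (adjusted p = 0.711). CKS2 differed by -0.12 (adjusted p = 0.642) and PLK1 by -0.07 (adjusted p = 0.688). CCNB1, CDK1, TOP2A, MKI67 and FOXM1 differed by 0.02, 0.07, 0.02, 0.08 and 0.03. TOP2A showed how far the treated arrays spread, with 11.03, 11.32 and 11.54 beside controls at 11.33, 11.26 and 11.24.

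That spread ran through the list. Averaged over the 33 members and set against the control mean of the line, the MDA-MB-468 treated arrays stood at -0.05, 0.06 and 0.08, and the group's SD was 0.07 beside 0.03 in its controls. Replicate 1 was the lowest of its group for 23 of the 33 members, and replicate 3 the highest for 20. In SKBR3 the treated arrays stood at -0.01, -0.00 and 0.07, with 14, 16 and 26 members above their control mean. In MDA-MB-231 they stood at 0.02, 0.02 and -0.00. Control arrays of all lines lay between -0.03 and 0.03. Taken gene by gene, the median SD of a member in MDA-MB-468 was 0.095 in treated and 0.062 in control arrays. Over all features tested, the median SD there was 0.141 in treated and 0.104 in control arrays. It was 0.146 and 0.121 in SKBR3, and 0.125 and 0.105 in MDA-MB-231. An SD per feature cannot show whether features shift together. The medians of the MDA-MB-468 treated arrays were 5.24, 5.23 and 5.21, in the opposite order to the member means. Whether other features shared the members' shift was not tested.

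**Figure D3:**
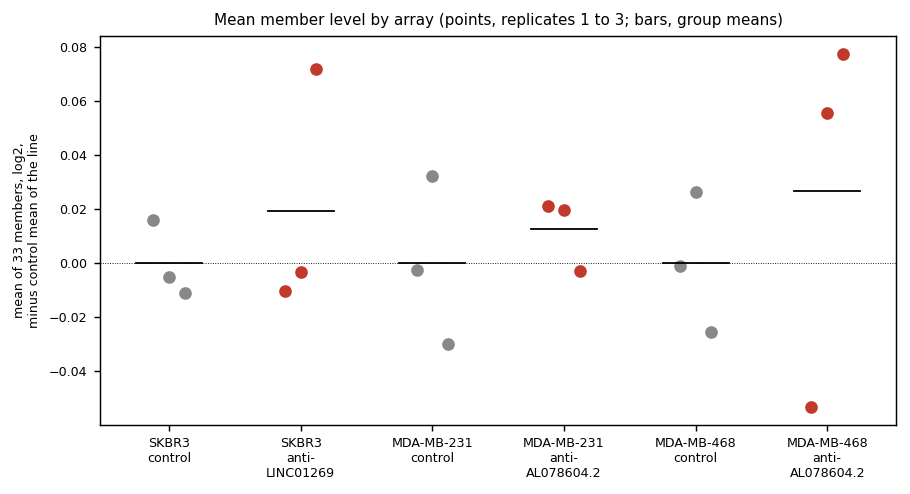
Each point is 1 array, giving the mean log2 value of the 33 members minus the control mean of the line, with group means as bars. The MDA-MB-468 treated arrays span -0.05 to 0.08, further apart than any control group.

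Another weighting of the arrays called more features in the anti-AL078604.2 responses. With array quality weights estimated by limma, in place of equal weights, 17.4% of features passed in MDA-MB-468 and 5 members (15.2%) with them: HMMR at 0.30 (adjusted p = 0.00166), TTK at 0.20 (0.012), NEK2 at 0.16 (0.016), MKI67 at 0.17 (0.0186) and CKS2 at -0.18 (0.0461). That fit gave replicate 2 of the treated group a weight of 9.62 and the others 0.479 and 0.387, so it leaned on 1 array. In MDA-MB-231 it passed 8.08% of features and 1 member, CENPA at 0.21 (adjusted p = 0.00978), with a weight of 3.43 on replicate 2 and 0.576 and 0.574 on the others. In the mean of both anti-AL078604.2 responses it passed 19.6% of features and 5 members (15.2%): NEK2, CENPA, HMMR, TTK and MKI67. Under these weights the members' shares were below those of all features.

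The responses of both triple-negative lines to the same ASO were then compared directly. By the limma test of the difference, MDA-MB-231 response minus MDA-MB-468 response, 0 of 33 members and 0% of features passed, and 1 member (3.03%) against 4.16% of features had an unadjusted p under 0.05. That member was HMMR, whose responses of -0.01 and 0.27 differed by -0.28 ± 0.11 (adjusted p = 0.998). The members with the next smallest p in the negative direction were AURKA at -0.15, BUB1 at -0.21 and NDC80 at -0.14, and those with the smallest p in the positive direction were CENPA at 0.17, CDC20 at 0.16, BIRC5 at 0.14 and KIF4A at 0.12, each with an adjusted p of 0.998. Members thus were not shown to respond differently in the lines, and the intervals of the differences ran from -0.52 for HMMR to 0.40 for BIRC5.

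In the mean of both anti-AL078604.2 responses, 1.6% of all features passed (0.703% higher and 0.898% lower) and 0 of 33 members did. NEK2 came nearest, at 0.13 ± 0.04 (limma adjusted p = 0.143), followed by HMMR at 0.13 (0.292), BIRC5 at -0.14 (0.295) and TTK at 0.13 (0.301). These were the 4 members (12.1%) with an unadjusted p under 0.05, beside 14.6% of features and 17.4% of those with a symbol. Among positive differences AURKA (0.08, 0.407), CENPA (0.08, 0.435) and CKS1B (0.09, 0.499) came next. Among negative ones KIF4A (-0.08, 0.512), CKS2 (-0.07, 0.615) and PRC1 (-0.05, 0.689) came next, each with its adjusted p second. The NEK2 response was 0.13 in SKBR3 too, where the ASO had another target, and did not pass in any of the 3 lines.

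Control levels of the members were compared between lines after quantile normalization over the 18 arrays, because the deposited values of the lines had different medians. Array medians differed by line, so line and any separate processing of its arrays cannot be told apart, and each control group serves in 2 of the 3 comparisons. More members passed between lines than after any ASO. Between MDA-MB-231 and MDA-MB-468 controls 19 of 33 members (57.6%) passed, 17 higher in MDA-MB-231 and 2 lower, beside 26.1% of all features (13.3% higher and 12.8% lower). The median member difference was 0.18, beside 0.01 over all features. Control groups did not overlap for 26 members (78.8%), beside 47.1% of all features. Among tested features with a symbol, 30.9% passed and 53.7% did not overlap.

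CDC20, the activator of the anaphase-promoting complex, read 10.77, 10.85 and 10.79 in MDA-MB-231 controls, 10.06, 10.17 and 10.04 in MDA-MB-468 controls and 10.31, 10.31 and 10.39 in SKBR3 controls, on the quantile-normalized log2 scale. It was higher in MDA-MB-231 than in MDA-MB-468 by 0.71 ± 0.08 (limma adjusted p = 8.23e-06), a 1.64-fold difference, and the 3 lines did not overlap. PLK1 read 11.08, 11.12 and 11.10 in MDA-MB-231, 10.49, 10.56 and 10.41 in MDA-MB-468 and 10.91, 10.90 and 10.94 in SKBR3. Its difference between the triple-negative lines was 0.61 ± 0.06 (adjusted p = 3.63e-06).

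AURKB, the catalytic subunit of the chromosomal passenger complex, kept another order. It read 9.49, 9.35 and 9.53 in SKBR3, 9.12, 9.13 and 9.08 in MDA-MB-231 and 8.43, 8.61 and 8.48 in MDA-MB-468. SKBR3 was thus above both other lines, and the MDA-MB-468 minus SKBR3 difference of -0.95 ± 0.07 (adjusted p = 1.37e-07, 1.93-fold) was the largest of any member between any lines here. CCNB1 read 9.94, 9.82 and 9.77 in SKBR3, 9.93, 9.93 and 9.84 in MDA-MB-231 and 9.41, 9.41 and 9.44 in MDA-MB-468, with the last below both others. FOXM1, the transcription factor of the G2 programme, had the same shape, with 9.65, 9.55 and 9.63, then 9.60, 9.55 and 9.49, then 9.11, 9.21 and 9.11. The FOXM1 difference between the triple-negative lines was 0.40 ± 0.06 (adjusted p = 0.000148).

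The other members higher in MDA-MB-231 than in MDA-MB-468 controls belonged to the entry, kinase, spindle and chromosome roles. Among entry genes they were CDC25C (0.42), CKS2 (0.41), CKS1B (0.38) and CCNB2 (0.35), and among kinases BUB1 (0.38) and AURKA (0.35). Among spindle genes KIF2C (0.42), a kinesin that depolymerizes microtubules, KIF20A (0.41), HMMR (0.29), KIF23 (0.23), a central spindle motor, and NUSAP1 (0.18) were higher, and BIRC5 (0.35) completed the set. Neither tested kinetochore member, CENPA or NDC80, passed. PRC1, which crosslinks midzone microtubules, went the other way: it read 9.23, 9.35 and 9.21 in MDA-MB-231, 9.61, 9.70 and 9.60 in MDA-MB-468 and 9.28, 9.22 and 9.29 in SKBR3. MDA-MB-468 stood above both other lines for PRC1, by 0.37 in each case (adjusted p = 0.000287 and 0.000149). TOP2A was lower in MDA-MB-231 than in MDA-MB-468, by 0.33 ± 0.10 (adjusted p = 0.0279).

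KIF2C and CKS1B were lower in MDA-MB-468 than in both other lines: KIF2C read 9.65, 9.72 and 9.67 there, 10.07, 10.14 and 10.09 in MDA-MB-231 and 10.15, 10.14 and 10.20 in SKBR3. CKS1B read 7.93, 8.06 and 7.93 in MDA-MB-468, 8.40, 8.35 and 8.32 in MDA-MB-231 and 8.60, 8.47 and 8.56 in SKBR3. SKBR3 and MDA-MB-231 did not differ beyond the threshold for either gene. CCNA2, BUB3 and CENPA instead were lower in SKBR3 than in both triple-negative lines: CCNA2 read 10.71, 10.77 and 10.75 in SKBR3, 10.97, 10.95 and 10.92 in MDA-MB-231 and 11.08, 11.03 and 10.98 in MDA-MB-468. CENPA read 8.63, 8.71 and 8.69 in SKBR3, 9.03, 9.03 and 9.01 in MDA-MB-231 and 8.86, 8.90 and 8.89 in MDA-MB-468, and its triple-negative lines differed by 0.14 (adjusted p = 0.102).

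**Figure D4:**
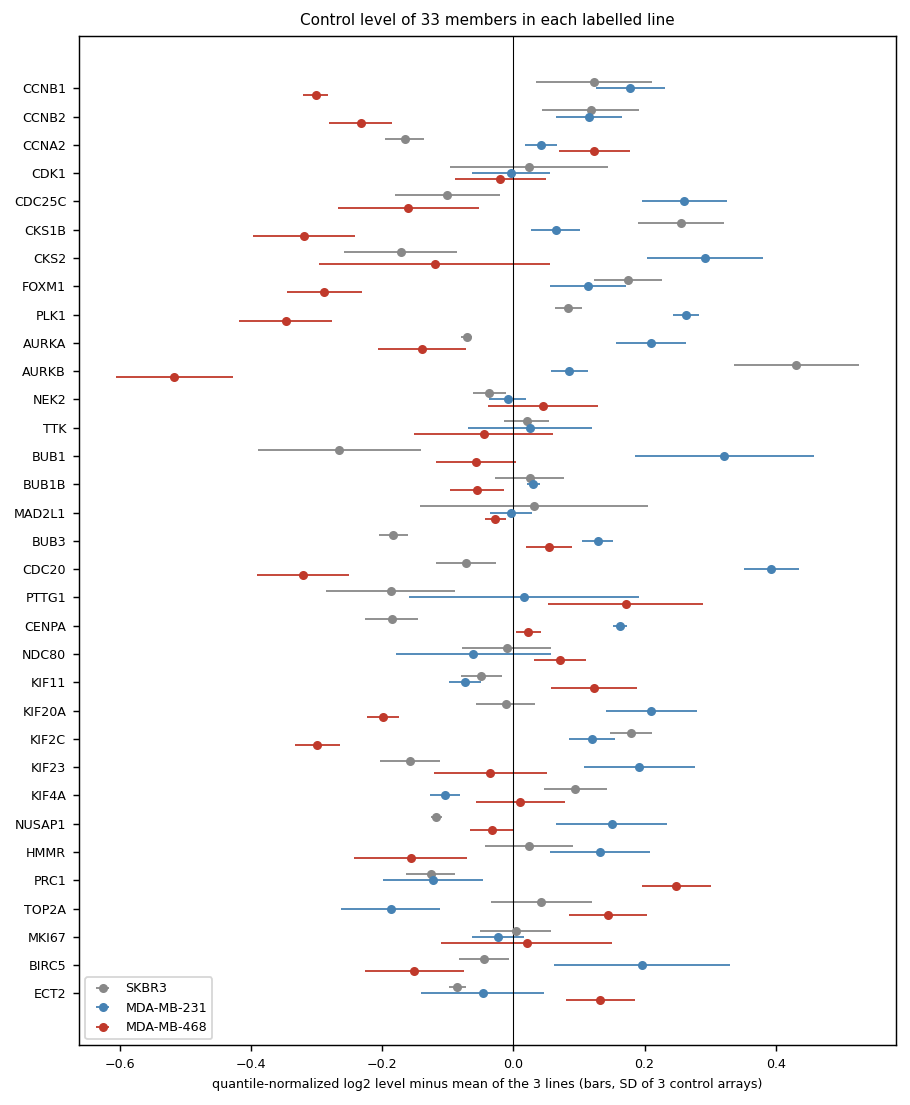
Points are means of 3 control arrays for each of 33 members in each labelled line, on the quantile-normalized log2 scale after subtraction of the mean of the 3 lines, and bars are SDs. MDA-MB-468 lies to the left for CCNB1, FOXM1, PLK1, AURKB and CDC20 and to the right for PRC1, while CDK1, NEK2, TTK, MAD2L1 and MKI67 lie close together.

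Against SKBR3 controls, MDA-MB-231 controls differed for 13 members (39.4%), beside 31.5% of all features. Of these, 12 were higher and 1 lower, beside 16.4% and 15.1% of features. Groups did not overlap for 17 members (51.5%), beside 48.6% of features. Among tested features with a symbol, 34.1% passed and 54% did not overlap. BUB1 led with 0.59 ± 0.10 (adjusted p = 0.000241): it read 10.38, 10.29 and 10.12 in MDA-MB-231 and 9.82, 9.59 and 9.62 in SKBR3, without overlap. CDC20 (0.47), CKS2 (0.46), CDC25C (0.36), CENPA (0.35), KIF23 (0.35), BUB3 (0.31), AURKA (0.28), NUSAP1 (0.27), BIRC5 (0.24), CCNA2 (0.21) and PLK1 (0.18) were also higher, and AURKB was lower (-0.35 ± 0.07, adjusted p = 0.00232). BUB3, a checkpoint scaffold that docks on the kinetochore, was higher in MDA-MB-468 than in SKBR3 too, by 0.24.

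MDA-MB-468 controls differed from SKBR3 controls for 14 members (42.4%), beside 35.5% of features. Of these, 6 were higher and 8 lower, beside 18.1% and 17.4% of features. Groups did not overlap for 20 members (60.6%), beside 50.7% of features. Among tested features with a symbol, 39.5% passed and 56.7% did not overlap. PRC1, PTTG1 (0.36), CCNA2 (0.29), BUB3, ECT2 (0.22), a cytokinesis exchange factor, and CENPA (0.21) were higher. AURKB, CKS1B (-0.57), KIF2C (-0.48), FOXM1 (-0.46), PLK1 (-0.43), CCNB1 (-0.42), CCNB2 (-0.35) and CDC20 (-0.25) were lower. The member medians against SKBR3 were 0.04 for MDA-MB-231 and -0.06 for MDA-MB-468. Not every cell cycle transcript separated the lines: CDK1 read 10.18, 9.95 and 10.02 in SKBR3, 10.04, 10.07 and 9.96 in MDA-MB-231 and 9.97, 10.09 and 9.97 in MDA-MB-468. MKI67 read 11.07, 11.17 and 11.11, then 11.13, 11.09 and 11.05, then 11.28, 11.08 and 11.04. Neither CDK1 nor MKI67 passed in any of the 3 comparisons, and their groups overlapped. Their 95% intervals between the triple-negative lines ran from -0.14 to 0.17 for CDK1 and from -0.21 to 0.12 for MKI67. NEK2, TTK, MAD2L1, NDC80 and the checkpoint kinase BUB1B did not pass between any lines either, with differences that ran from -0.13 for NDC80 to 0.09 for BUB1B. KIF11 and KIF4A came near the threshold, with a smallest adjusted p of 0.0541 and 0.0501.

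The calls between lines rested on several arrays to different degrees. The alternatives run here were no filter, no intensity trend, array medians subtracted, a replicate block over the lines and each control array left out. Array quality weights were not applied to the comparisons of lines. Under all the alternatives run, 15 of the 19 members kept the call between the triple-negative lines. KIF23, NUSAP1, HMMR and TOP2A lost the call, at a limma adjusted p of up to 0.12. Against SKBR3, 11 of 13 members kept it in MDA-MB-231 (PLK1 and BIRC5 did not) and 10 of 14 in MDA-MB-468 (CDC20, PTTG1, CENPA and ECT2 did not). Of the 17 members higher in MDA-MB-231 than in MDA-MB-468, 14 had a promoter in the RefSeq table, and TTTGAA lay within 150 bases of the start in 8 of these 14. It lay there in 8 of 14 other tested members with a promoter as well, and a CCAAT box in 13 and 11.

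Lists of related genes gave the surroundings of the members. In each line's response 0 genes of 7 such lists passed limma's adjusted p of 0.05. Of their 98 tested genes, 13, 12 and 14 (13.3%, 12.2% and 14.3%) had an unadjusted p under 0.05 in SKBR3, MDA-MB-231 and MDA-MB-468. The shares were 9.16%, 9.35% and 10.5% of all features, and 8.7%, 11.5% and 12.2% of tested features with a symbol. The lists' shares in MDA-MB-231 and MDA-MB-468 were thus near those of features with a symbol. The other kinetochore genes (15 tested of 24 listed) had median differences of 0.03, 0.00 and 0.06 in SKBR3, MDA-MB-231 and MDA-MB-468, and condensin and cohesin genes (11 of 19) of 0.01, 0.01 and 0.12. The anaphase-promoting complex (17 of 17) stood at 0.02, -0.01 and -0.01, the G2 checkpoint (7 of 11) at 0.00, 0.03 and -0.01, and DREAM and MuvB regulators (13 of 15) at 0.03, -0.02 and -0.05. Passenger proteins and other mitotic kinesins (12 of 13) stood at 0.03, -0.00 and 0.00. DNA replication and G1/S genes (23 of 30), which act before the members in the cycle, stood at 0.05, 0.12 and -0.06, with 19, 19 and 5 of 23 above 0, while 20, 16 and 21 of the 33 members were above 0. All features tested were above 0 in 54%, 53% and 49.1%. CDC45, a subunit of the active replicative helicase, had the smallest p of the last list in any single response, at -0.33 ± 0.07 in MDA-MB-468 (adjusted p = 0.15).

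**Figure D5:**
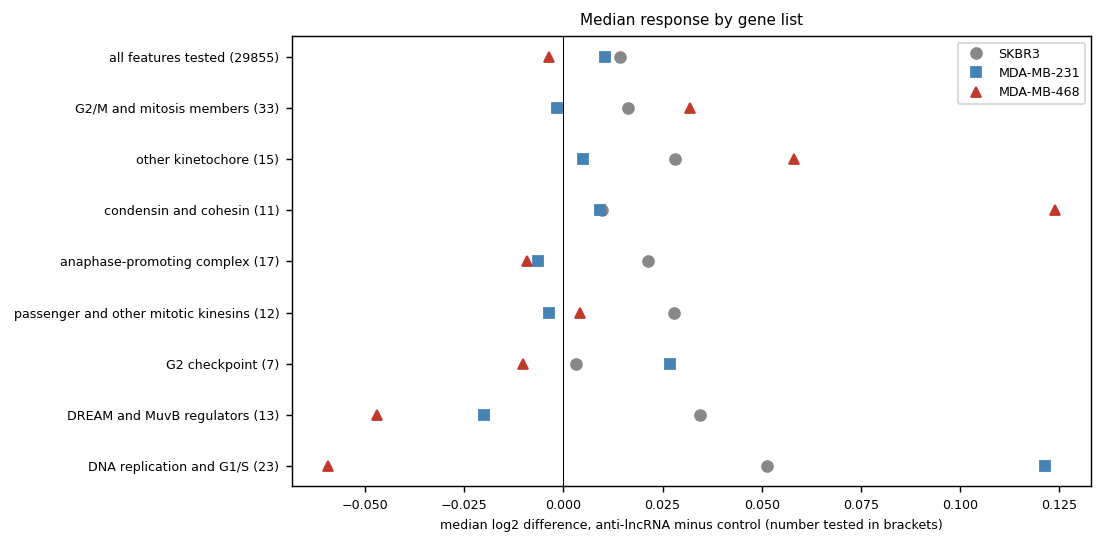
Each symbol is the median log2 difference, treated minus control, over the tested genes of a list (their number in brackets), with a circle for SKBR3, a square for MDA-MB-231 and a triangle for MDA-MB-468. The 33 members lie within 0.04 of all features tested in every line, and the DNA replication and G1/S list lies at 0.12 in MDA-MB-231 and -0.06 in MDA-MB-468.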

How the data were processed

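RNA was measured on 18 arrays. The submitters' processing notes name Transcriptome Analysis Console as the tool the authors used; its version, the summarization and the build are not given in the sources used here. Deposited values of the authors, read as log2 from their range of 0.41 to 13.84, were used as they stand for treated against control.

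Array medians differed between lines, so control levels were compared after quantile normalization over all arrays. A feature was tested when, in 1 or more of the 6 groups, its mean lay above the median feature of that group (29855 features). One model of group means was fitted to all 18 arrays with limma 3.58.1 in R 4.3.3 (12 residual and 4.33 prior degrees of freedom), with an intensity trend, two-sided p-values and Benjamini-Hochberg adjustment over all features tested at 0.05. Intervals are 95%. Errors after ± are standard errors of the limma fit, with n = 3 arrays a group. Differences in log2 are treated minus control, or as worded. A call means an adjusted p under 0.05.

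The members and lists were chosen with earlier results of these data known. Members named were those that passed, otherwise the 4 smallest p in each direction, the largest difference of each role group in the triple-negative lines, and CCNB1, CDK1, PLK1, TOP2A, MKI67 and FOXM1; of each other list up to 3 genes with the smallest p. Deviations of same-numbered arrays correlated between -0.12 and 0.10, so replicate numbers were not shown to pair arrays, and the labels do not say whether they do. The procedure was tested on simulated data. Alternatives were the filter, the trend, the arrays fitted, the scaling, array weights, a replicate block and each array left out. The arrays fitted and array weights were varied for the responses only. Promoters came from RefSeq (GRCh38.p14).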

Additional observations from a re-analysis of the deposited data

How the results depend on the processing

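In the responses, 0 members passed under every alternative except array quality weights (1 in MDA-MB-231, 5 in MDA-MB-468 and 5 in the mean of both) and 1 omission. Features called were less stable. In SKBR3 they went from 0 to 1 with no filter. In MDA-MB-231 they went from 51 to 28 with no filter, 26 with no intensity trend, 3 with only the arrays compared and 2413 with array quality weights. In MDA-MB-468 they went from 2 to 0 with only the arrays compared and 5199 with weights. The difference of the responses went from 0 to 309 with weights. The mean of both went from 478 to 263 with no filter, 259 with only the arrays compared and 5837 with weights. The median over members for MDA-MB-231 minus SKBR3 controls went from 0.04 to 0.0754 with array medians subtracted. The causes were not tested.

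With a replicate block within each line, features called fell to 0 in MDA-MB-231, 0 in MDA-MB-468 and 113 in the mean of both, and members called remained at 0. The numbers were not shown to pair arrays (correlations of -0.12 to 0.10). With the block over the lines, 12, 13 and 19 members passed between control groups, against 13, 14 and 19.

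Leaving out each array in turn gave 0 to 231 features in SKBR3 (231 without treated replicate 2, with MAD2L1 as 1 member called, 5 without control replicate 2), 0 to 532 in MDA-MB-231 (532 without treated replicate 1, 0 without any other), 0 to 12 in MDA-MB-468 (12 without treated replicate 3) and 91 to 1431 in the mean of both (1431 without MDA-MB-231 treated replicate 1, 969 without MDA-MB-468 treated replicate 3). Members called ran from 0 to 1 in SKBR3 and were 0 in the other responses. Member medians ran from -0.01 to 0.02 in SKBR3, -0.0069 to 0.033 in MDA-MB-231, 0.00 to 0.07 in MDA-MB-468, -0.065 to 0.019 in the difference and 0.00 to 0.05 in the mean. Between control groups they ran from 0.035 to 0.083 for MDA-MB-231 minus SKBR3, -0.084 to -0.0087 for MDA-MB-468 minus SKBR3 and 0.15 to 0.23 for MDA-MB-231 minus MDA-MB-468. Among named members only the BIRC5 response in MDA-MB-231 turned sign, between -0.15 and 0.021, the latter without treated replicate 3. Of members below the threshold, KIF20A (-0.213 to -0.0011) and CDC25C (-0.205 to -0.039) in SKBR3, PTTG1 (-0.201 to -0.023) in MDA-MB-231, and CKS2 (-0.197 to -0.023) and NDC80 (0.016 to 0.217) in MDA-MB-468 also moved widely. Each member had 1 named feature, so the mean over a gene's features is the same value. An array shows no count of molecules, and a member's interval of about 0.15 either way limits what could be seen.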

Other observations

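Outside the members, 3 of the 98 tested genes of the related lists passed limma's adjusted p in the mean of both anti-AL078604.2 responses. In that mean 1.6% of all features passed, and 2.2% of those with a symbol. The 3 genes were all lower. CENPP, a subunit of the inner kinetochore, read 7.26, 7.26 and 7.24 in MDA-MB-231 controls and 6.94, 6.29 and 6.13 after the ASO, and 6.88, 6.91 and 7.12 against 5.94, 6.37 and 6.84 in MDA-MB-468. Its treated arrays lay below the controls in both lines (-0.70 ± 0.15, adjusted p = 0.026). STAG1, a cohesin subunit, read 8.77, 8.74 and 8.61 against 8.15, 7.41 and 7.22 in MDA-MB-231, and 9.09, 8.99 and 8.82 against 7.61, 8.20 and 8.87 in MDA-MB-468, where 1 treated array lay among the controls (-0.93 ± 0.22, adjusted p = 0.0459). ANAPC1, the largest subunit of the anaphase-promoting complex, read 8.64, 8.78 and 8.68 against 8.57, 8.27 and 8.18, and 8.76, 8.77 and 8.78 against 8.15, 8.28 and 8.61 (-0.39 ± 0.08, adjusted p = 0.0229). In SKBR3, where the ASO had another target, the differences were -0.23, -0.67 and 0.12, and 0 of these passed. The calls were not stable: of 12 omissions of 1 array, CENPP kept its call in 2, STAG1 in 2 and ANAPC1 in 3, with adjusted p of up to 0.0837, 0.139 and 0.078 over all alternatives.

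In control arrays, 43 of the 98 tested genes of the 7 related lists passed between MDA-MB-231 and MDA-MB-468. Beside them, 26.1% of all features passed and 30.9% of those with a symbol. Of the anaphase-promoting complex 9 of 17 passed, 7 higher in MDA-MB-231 and 2 lower. Among condensin and cohesin genes (11 tested of 19 listed) 7 passed, all lower in MDA-MB-231, beside 12.8% of features that were lower. In this last list the smallest p belonged to the next 3 genes. They were SMC1A (-0.59 ± 0.05, limma adjusted p = 1.7e-06), STAG2 (-0.43 ± 0.07, adjusted p = 0.00044) and SMC3 (-0.48 ± 0.10, adjusted p = 0.00184), which encode parts of the cohesin ring and its STAG arm. CDCA8, or borealin, a partner of AURKB and BIRC5 in the chromosomal passenger complex, was higher in MDA-MB-231 by 0.70 ± 0.06 (adjusted p = 1.46e-06).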
